A study of Mus musculus with 4 samples.

Results

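The 10 genes described here encode parts of the palate shelf matrix other than collagens. They are Has2 (a hyaluronan synthase), Vcan (versican), Fn1 (fibronectin), Tnc (tenascin C), Postn (periostin), Dcn (decorin), Lum (lumican), Fbn2 (a fibrillin), Eln (elastin) and Lox (lysyl oxidase). ATAC-seq, in which a transposase inserts adapters into open DNA, was run on 4 libraries, and the authors deposited 1 peak list for each. Peaks that shared at least 1 bp were merged into regions, and each region was assigned to the nearest protein-coding gene within 100 kb of its edges. This gave 42 regions at the 10 genes, of 34815 regions assigned to any protein-coding gene and 39843 regions in all.

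Both groups were green fluorescent mesenchymal cells sorted from mouse palates at E14.5, with 50000 cells pooled for each group. The 2 mutant libraries were Shox2Cre/-;Nkx2.5F/F;R26RmTmG, and the 2 control libraries Shox2Cre/+;Nkx2.5F/F;R26RmTmG. Shox2 is a homeobox gene of the anterior palate, and the series asks whether it is needed for open chromatin in its own lineage. The Cre sits at Shox2, so the controls kept 1 intact Shox2 allele and the mutants none, and green cells are those in which Cre has acted on the reporter. Both groups carried the floxed Nkx2-5 alleles that Cre can cut, so the controls were not wild type in the sorted cells, and the loss of Nkx2-5 was not measured. Nothing in the labels says that the 2 libraries of a genotype came from separate embryos, so the spread between them may be technical.

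Matrix outside the collagens gives the palatal shelf much of its volume and elasticity. Hyaluronan is a long sugar polymer that holds water and swells the shelf, and versican binds it into aggregates. Fibronectin, tenascin C and periostin are glycoproteins through which cells attach to and sense the matrix. Decorin and lumican are small leucine-rich proteoglycans that coat collagen fibrils, while fibrillin and elastin form elastic fibres that lysyl oxidase cross-links.

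Each peak is described by the percentile of its deposited score within its own library. The score is 10 times the −log10 p of the peak caller, cut to a whole number, so a percentile of 90.5 says that the peak ranked above about that percentage of the listed peaks. It ranks how clearly a peak was called and is not a read count, and read depth is unknown. The mutant lists held 29225 and 31832 peaks and the control lists 30239 and 22966. In the 17529 assigned regions with a peak in every library, the median percentile was 69.0 in mutant 1 and 71.6 in mutant 2, against 70.2 in control 1 and 60.9 in control 2. The shortest list therefore gave the lowest percentiles, so percentiles taken only among regions called in all 4 libraries are given as well for the counts over genotypes and for each region whose genotypes did not overlap in at least 1 of the rankings. As a check of the tissue, 5 of 8 palatal mesenchyme markers had a peak near the gene in every library (Twist1, Osr2, Msx1, Alx1 and Col1a1). Prrx1 lacked one in control 2 and Pdgfra in mutant 1, and Shox2 had none near its start or ends in any library. Peaks near the gene were also listed in every library for 3 of 6 epithelial, 3 of 4 neuronal, 2 of 4 Schwann and glial, 1 of 5 endothelial and 1 of 5 blood markers, and for 0 of 5 skeletal muscle markers. Their part in the results was not tested.

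Promoter sequences were at hand for Vcan, Tnc and Postn, and are shown because peaks covered the starts of Vcan and Tnc in all 4 libraries but neither start of Postn in any. Each line gives the 250 bases before an annotated start, 5′ to 3′ (RefSeq, GRCm38.p6, the same build as mm10). The windows are chr13:89742513-89742762 (minus strand) for Vcan, chr4:64047016-64047265 (minus strand) for Tnc, and chr3:54359017-54359266 and chr3:54360857-54361106 (both plus strand) for Postn. The Vcan start lies 515 bp inside the annotated gene end and the second Postn start 1840 bp inside. Capitals mark matches to any of 8 short motifs searched on both strands.
Vcan, start at 89742512: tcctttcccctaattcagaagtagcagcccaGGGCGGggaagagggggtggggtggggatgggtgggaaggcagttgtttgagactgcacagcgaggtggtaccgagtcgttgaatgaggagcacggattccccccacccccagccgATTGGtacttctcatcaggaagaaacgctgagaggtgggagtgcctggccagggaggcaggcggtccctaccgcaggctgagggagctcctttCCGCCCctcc
Tnc, start at 64047015: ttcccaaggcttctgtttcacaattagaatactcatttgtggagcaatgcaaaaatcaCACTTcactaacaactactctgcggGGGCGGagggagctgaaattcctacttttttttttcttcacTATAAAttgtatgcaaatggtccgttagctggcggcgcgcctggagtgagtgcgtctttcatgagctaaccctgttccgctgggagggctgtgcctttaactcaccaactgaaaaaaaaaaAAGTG
Postn, start at 54359267: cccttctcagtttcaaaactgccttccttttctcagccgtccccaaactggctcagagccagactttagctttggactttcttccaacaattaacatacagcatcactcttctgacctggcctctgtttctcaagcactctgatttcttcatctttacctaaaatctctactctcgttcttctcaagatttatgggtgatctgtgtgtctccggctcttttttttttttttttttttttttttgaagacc
Postn, start at 54361107: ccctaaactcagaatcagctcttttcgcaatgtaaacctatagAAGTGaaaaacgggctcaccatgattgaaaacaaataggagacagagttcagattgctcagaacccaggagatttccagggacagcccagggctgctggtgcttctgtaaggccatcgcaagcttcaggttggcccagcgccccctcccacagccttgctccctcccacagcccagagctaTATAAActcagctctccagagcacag
The motifs were TATAAA (the TATA box), CCAAT (NF-Y core), GGGCGG (SP/KLF core), TAATTA (homeodomain core), AAGTG (Nkx2 core), TGANTCA (AP-1), GGAATG (TEAD core) and CAGCTG (E-box), and no matches in these windows overlapped. The Vcan window held GGGCGG from −219 to −214 and again, on the other strand, from −10 to −5, and CCAAT on the other strand from −103 to −99. In the Tnc window GGGCGG lay from −167 to −162, TATAAA from −126 to −121, and AAGTG from −192 to −188 (other strand) and from −5 to −1. Tnc has a second annotated start at 64046936, 79 bp inside the gene end, also covered by a peak in all 4 libraries. Its window overlaps the printed one and is not shown. Counted from that start, GGGCGG lay from −246 to −241, TATAAA from −205 to −200 and AAGTG only from −84 to −80. Of the Postn windows the first held 0 matches, and the second held TATAAA from −26 to −21 and AAGTG from −207 to −203. Of 32851 promoter windows of the same length, 12.4% held TATAAA, 33.8% CCAAT, 32.7% GGGCGG, 4.84% TAATTA, 40.7% AAGTG, 6.75% TGANTCA, 12.6% GGAATG and 13.0% CAGCTG. The GC content was 62.4% for Vcan, 44.8% for the printed Tnc window and 51.2% for that of the second Tnc start. It was 40.4% and 52.0% for Postn, against a median of 52.4% over all windows. Has2, Fn1, Dcn, Lum, Fbn2, Eln and Lox had no entry, and for these 7 genes a region is called near the gene when it lies within 1 kb of either annotated end. For Vcan, Tnc and Postn the same distance was measured from an annotated start.

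The 42 regions were spread unevenly over the genes. Tnc had 11, Has2 and Postn 6 each, Vcan, Dcn and Fbn2 4 each, Fn1, Eln and Lox 2 each, and Lum 1. Of all genes with a region, 1.21% had more regions than Tnc and 49.2% had more than Lum. Near a start or end lay 11 regions (26.2%, against 36.5% of all assigned regions), while 8 lay further inside a gene and 23 outside. A peak in all 4 libraries was found in 20 regions (47.6%, against 50.3% of all assigned regions). By position, that was 9 of the 11 regions near a start or end and 11 of the 31 others, against 84.4% and 30.8% of all assigned regions. Both shares were close to the background.

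**Figure D1:**
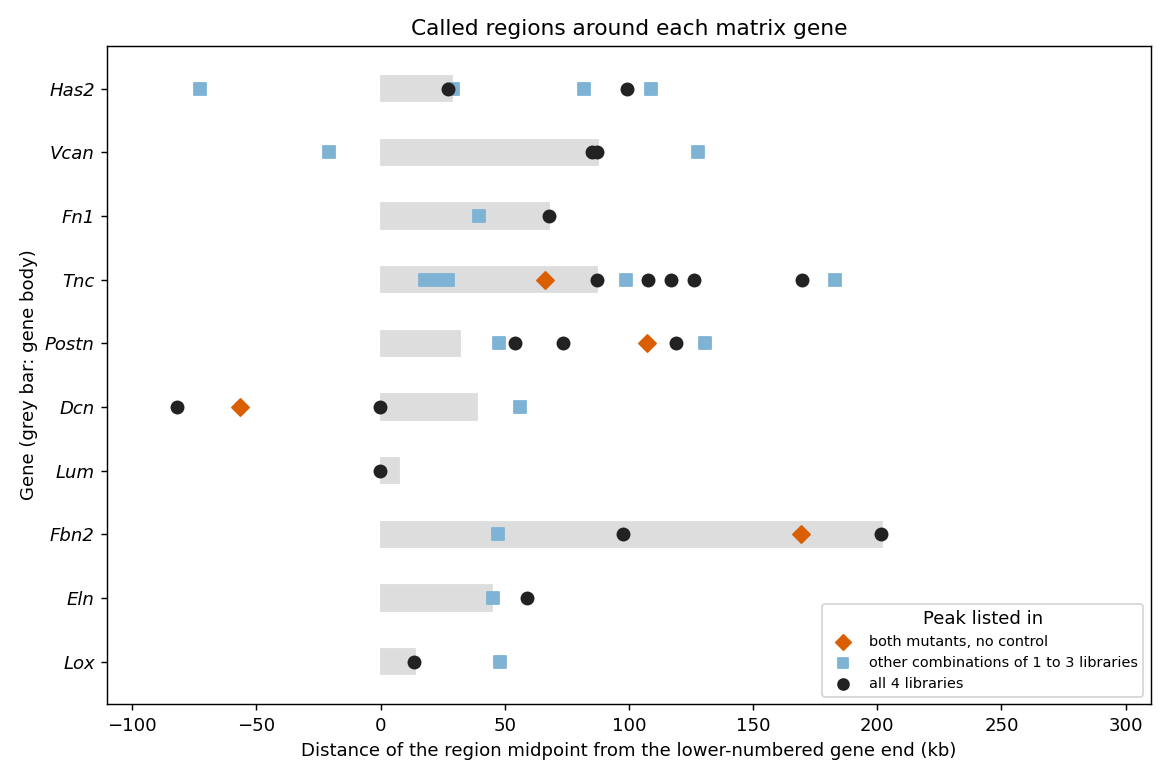
Called regions at the 10 genes, plotted by the distance of the region midpoint from the lower-numbered gene end (x axis, kb), with gene bodies as grey bars. Black circles mark the 20 regions with a peak in all 4 libraries, orange diamonds the 4 called in both mutants and no control, and blue squares the 18 others; the Postn body holds no region.

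Has2 makes hyaluronan at the cell membrane. The region with its highest mean percentile lay inside the gene (mm10, chromosome 15, 56692123 to 56693609). Its nearer edge was 937 bp from an end and its summits 2090 to 2119 bp. The percentile there was 75.5 in mutant 1 and 73.8 in mutant 2, against 61.4 in control 1 and 72.3 in control 2. Both mutants ranked above both controls, by 1.58 points at the narrowest, between mutant 2 and control 2. Taken among regions called in all 4 libraries the percentiles were 62.2 and 56.0 in the mutants against 38.8 and 66.3 in the controls, and the genotypes overlapped. A narrower region over the gene end itself (56694378 to 56694991) had a peak in mutant 2 at percentile 38.0 and in control 1 at 20.4, and none in mutant 1 or control 2.

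The 4 regions outside Has2 lay 52.4 to 79.8 kb from it, in a stretch where the next protein-coding gene, Slc22a22, was at least 469 kb away. The region 69.8 kb away (56764346 to 56765608) was called in every library, at percentiles of 56.3 and 71.8 in the mutants and 73.5 and 42.7 in the controls. The controls lay on both sides of the mutants. It ranked above the inner region in control 1, and its deposited enrichment was the higher of the pair in every library, at 7.85 and 10.2 in the mutants and 10.9 and 7.56 in the controls, while the inner region had 6.02 and 5.82 in the mutants and 5.09 and 6.14 in the controls. Regions 72.5 kb away (56592400 to 56593171) and 52.4 kb away (56746913 to 56747742) were called in both mutants and control 1. The last, 79.8 kb away (56774378 to 56774924), was called in mutant 2 alone, at percentile 9.21.

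Vcan had 2 adjoining regions with an edge within 1 kb of its start, both called in every library. The region over the start printed above (chromosome 13, 89741960 to 89742872) had percentiles of 38.2 and 64.8 in the mutants and 55.5 and 53.2 in the controls. Its summits lay 35 to 154 bp from the start. The wider region next to it (89739329 to 89741635, 2307 bp wide) had 57.7 and 41.6 in the mutants and 50.8 and 29.3 in the controls. Its nearer edge lay 877 bp inside the start, and its summits 1970 to 2102 bp. The mutant libraries ranked these neighbours in opposite order, and the genotypes overlapped at both. A region 39.6 kb outside the gene (89782579 to 89783343) was called in 3 libraries, at 50.1 and 12.5 in the mutants and 48.2 in control 1. A region between Vcan and Hapln1, which encodes a link protein of the same aggregates, was called in mutant 2 alone, at percentile 28.5 (89634046 to 89634630). It lay 20.7 kb from Vcan and 22.2 kb from Hapln1.

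Fn1 carried the region with the highest percentile of the whole set in every library (chromosome 1, 71652535 to 71654198, over a gene end). The percentile was 90.5 and 90.1 in the mutants and 92.7 and 86.8 in the controls, and the deposited enrichment 8.88 and 8.38 in the mutants and 9.09 and 7.85 in the controls. The mutant values lay between those of the controls, so the genotypes did not separate. Of 10727 regions near a start or end and called in every library, 77.2% had a lower mean percentile. The only other region, inside the gene (71624756 to 71625153), was called in mutant 2 alone, at percentile 8.90. Fibronectin thus had 1 high-ranked region and no other region called in more than 1 library.

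Tnc had the most regions. The region over its start (chromosome 4, 64046452 to 64047689) ranked at 79.6 and 68.5 in the mutants and 73.0 and 59.5 in the controls, with summits 34 to 87 bp from an annotated start. The genotypes overlapped there. Outside the gene, on the side of the start, 6 regions lay between 11.3 and 95.1 kb away, and the next protein-coding gene, Tnfsf8, was at least 197 kb from each. Of these, 4 had a peak in every library.

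The highest percentiles of the 6 were found 20.1 kb away (64067083 to 64068177), with 80.4 and 79.2 in the mutants and 88.0 and 74.0 in the controls. It ranked above the start region in every library. The region 29.1 kb away (64076102 to 64077014) had 27.6 and 42.9 in the mutants and 60.3 and 42.7 in the controls. Among regions called in all 4 libraries those percentiles were 6.74 and 13.8 in the mutants against 37.2 and 31.2 in the controls. There both controls lay above both mutants, by 17.4 points at the narrowest, and the difference of the means, −23.9 points, was the furthest from 0 of the 20. By percentile of the full list the difference was −16.2 points and control 2 lay just under mutant 2. At 38.6 kb (64085610 to 64086352) the percentiles were 13.7 and 36.5 in the mutants and 29.1 and 5.75 in the controls. At 82.1 kb (64129143 to 64129887) they were 67.5 and 65.9 in the mutants and 65.9 and 49.0 in the controls. Neighbouring regions of this stretch therefore differed in the order of the libraries.

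The other regions of Tnc ranked low. Another 2 outside the gene were called in 2 or 3 libraries of both genotypes, 11.3 and 95.1 kb away. Another 4 lay inside the gene, and 1 of them (64025430 to 64026147) had a peak in both mutants and no control, at percentiles of only 5.29 and 2.98. The other three were each called in a single library, 2 in mutant 2 and 1 in control 2, at 3.63 to 15.2.

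Postn, which encodes a matricellular protein of collagen-rich connective tissue, was the only one of the 10 with no region near a start or inside the gene. All 6 of its regions lay 15.5 to 98.5 kb outside, on the side of the second gene end. The highest percentiles were found 86.7 kb away (chromosome 3, 54477721 to 54478863), with 77.8 and 71.4 in the mutants and 70.0 and 50.1 in the controls. Both mutants ranked above both controls by 1.37 points at the narrowest. Among regions called in all 4 libraries the values were 65.7 and 51.9 in the mutants and 52.1 and 39.6 in the controls, and mutant 2 fell just below control 1.

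A mutant-only region lay 75.0 kb from Postn (54466052 to 54467027). Its percentiles of 43.6 in mutant 1 and 56.0 in mutant 2 were the highest lower value among the 4 mutant-only regions of the set, and the summits lay 9 bp apart. In the gaps around it, 5 numbered peaks were missing from the list of control 1 and 3 from that of control 2. The region 41.1 kb away (54432152 to 54433182) had 43.6 and 47.3 in the mutants and 46.2 and 36.0 in the controls, while among regions called in all 4 libraries it had 18.7 and 18.0 in the mutants and 19.2 and 24.1 in the controls, with both controls higher. At 21.8 kb (54412849 to 54413999) the values were 28.5 and 36.8 in the mutants and 49.4 and 4.82 in the controls, the controls bracketing the mutants. The 2 others were called in mutant 1 alone and in control 1 alone.

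Dcn and Lum are neighbours on chromosome 10. The region over an end of Lum (97564691 to 97565940), its only one, ranked at 73.4 and 67.2 in the mutants and 61.0 and 64.3 in the controls. Both mutants were higher, by 2.88 points at the narrowest, but among regions called in all 4 libraries the genotypes overlapped, at 58.9 and 45.1 in the mutants and 38.2 and 56.7 in the controls. The region over an end of Dcn (97478401 to 97480133) ranked lower, at 50.1 and 34.9 in the mutants and 38.4 and 16.0 in the controls, with summits 6 to 98 bp from the annotated end. A distal region of Dcn, 81.6 kb away (97396945 to 97397939), ranked above it in every library, at 83.1 and 75.8 in the mutants and 77.6 and 81.1 in the controls. The means of that distal region differed by 0.133 points, less than the spread within either genotype (SD 5.15 in the mutants and 2.44 in the controls, n = 2 each).

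The mutant-only region of Dcn lay between these, 55.9 kb from the gene (97422491 to 97423580), at 30.6 in mutant 1 and 20.8 in mutant 2. A region between Dcn and Lum, 17.0 kb from Dcn and 29.3 kb from Lum, was called in mutant 1 at 11.9 and control 1 at 1.70.

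Fbn2, which encodes a microfibril protein of embryonic tissue, had a region over a gene end (chromosome 18, 58208928 to 58211416) at 53.9 and 29.1 in the mutants and 53.1 and 46.6 in the controls. Inside the gene, a region at 58105781 to 58106833 had 65.0 and 62.6 in the mutants and 67.2 and 24.4 in the controls. The difference of the means there was 18.0 points, the largest of the 20 by percentile of the full list, and it rested on control 2, since control 1 was the highest of the 4. It was 11.5 points among regions called in all 4 libraries. A mutant-only region, also inside Fbn2 (58177391 to 58178226), had 3.86 in mutant 1 and 38.8 in mutant 2, with summits 321 bp apart. The remaining region inside the gene was called in mutant 2 alone, at 0.629.

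Eln, the elastin gene, had a weak region over a gene end (chromosome 5, 134746843 to 134748534), at 25.5 and 4.38 in the mutants and 3.55 in control 1, and no listed peak in control 2. Its region 13.9 kb outside (134761222 to 134762222) ranked higher, at 37.4 and 52.1 in the mutants and 50.8 and 58.6 in the controls. Among regions called in all 4 libraries that outer region had 13.0 and 23.4 in the mutants against 24.3 and 49.8 in the controls, so both controls were higher there, by 0.944 points at the narrowest.

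Lox cross-links both collagen and elastin. The region over an end of the gene (chromosome 18, 52528370 to 52530243) had 26.9 and 24.0 in the mutants against 10.5 and 8.73 in the controls. This was the widest gap between genotypes in the set relative to the spread within them, with means of 25.5 ± 2.06 in mutants and 9.63 ± 1.27 in controls (SD, n = 2 each). Among regions called in all 4 libraries both mutants remained higher, at 6.44 and 3.50 against 0.846 and 3.13 in the controls, a gap of 0.370 points at the narrowest. The deposited enrichments overlapped, at 4.65 and 4.51 in the mutants and 4.31 and 4.54 in the controls, and the summits spread over 502 bp. A region 33.7 kb away (52563547 to 52564764) was called in mutant 2 and control 2.

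**Figure D2:**
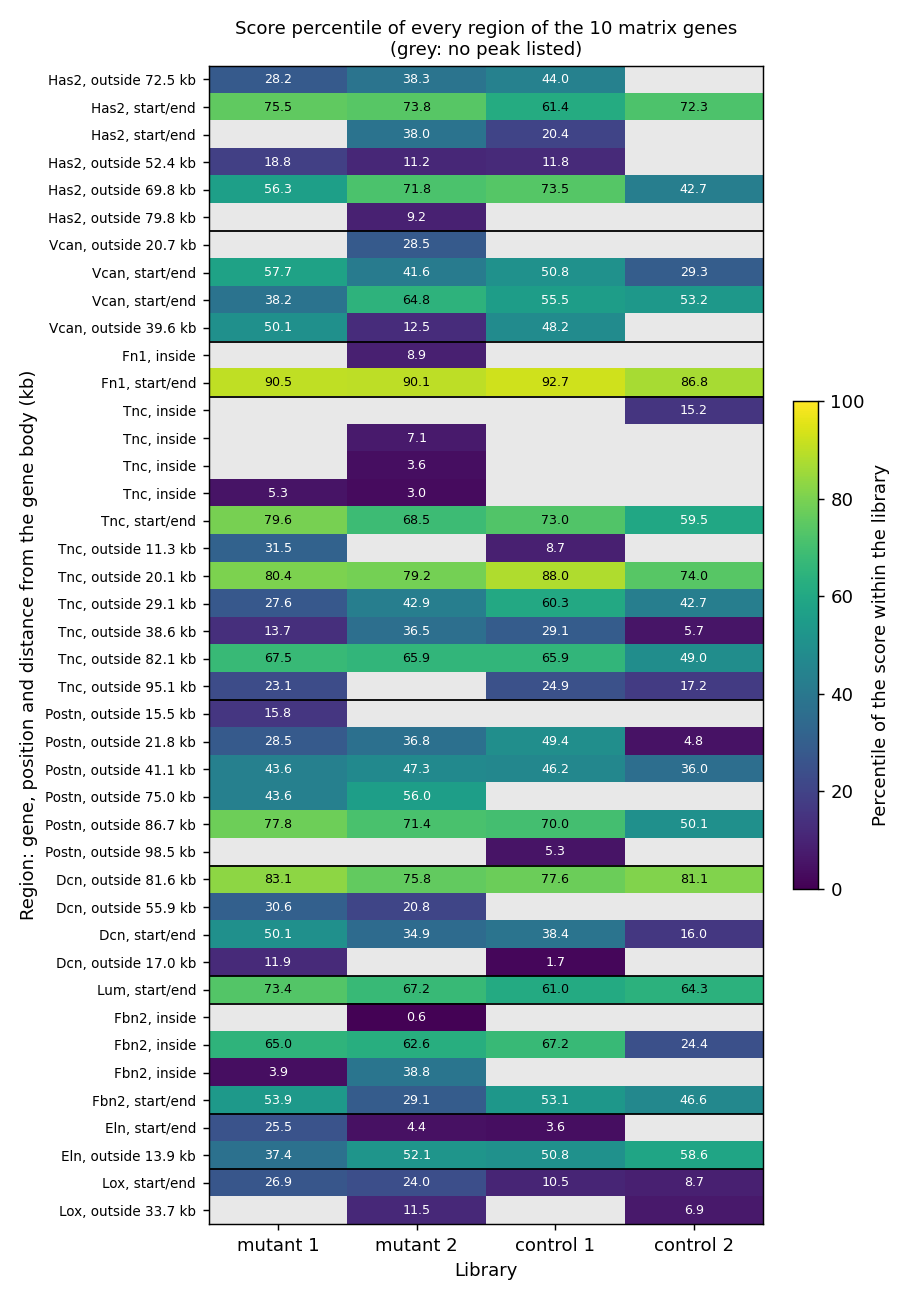
Score percentile (colour and number, 0 to 100 within each library) of all 42 regions (rows, by gene and distance from the gene body in kb) in the 2 mutant and 2 control libraries (columns). Grey cells have no listed peak; the Fn1 end region is above 86 in every library, and 19 of the 48 grey cells are in control 2.

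Ordered by mean percentile over the libraries, the regions near a start or end ran from Fn1 (90.0 ± 2.44) through Has2 (70.8 ± 6.38), Tnc (70.1 ± 8.46), Lum (66.5 ± 5.25) and the Vcan start (52.9 ± 11.0) to the Fbn2 end (45.7 ± 11.5). Then came the inner Vcan region (44.8 ± 12.2), Dcn (34.9 ± 14.1) and Lox (17.5 ± 9.25), all SD over 4 libraries. The second Has2 region and the Eln region were called in only 2 and 3 libraries, with means of 29.2 and 11.1. The first Has2 region and the inner Vcan region count as near by their edges. Their summits lay 2090 to 2119 bp from an end and 1970 to 2102 bp from the start. Fn1 stood clear of the next region in every library. Each of the others overlapped its neighbour in the order. The percentile follows the caller's p, which can rise with peak width, so this is an order of calls and not of openness per base.

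The summits of the 4 libraries lay a median of 129.5 bp apart in the 20 regions, against 98.0 bp in all assigned regions called in every library. They fell within 29 bp at the inner Has2 region, 36 bp at the distal Dcn region and 49 bp at Fn1. At the other extreme were Lox (502 bp) and the Fbn2 end (353 bp).

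Presence of a call was compared first between genotypes. The mutant-only regions were the 4 described at Tnc, Postn, Dcn and Fbn2, 9.52% of the 42, against 4.02% of all assigned regions. All 4 lay more than 1 kb from a start or end. A smaller part of the 42 than of all assigned regions lay near one (26.2% against 36.5%), so the 2 shares are not matched by position. There were 0 control-only regions, against 1.07% of all assigned regions. No region was mutant-only at Has2, Vcan, Fn1, Lum, Eln or Lox. With 22959 top-ranked peaks taken from each library, only the Postn region was mutant-only, 1 of 32 regions against 2.12% of all assigned regions, and 0 were control-only, against 2.11%. Leaving out a library lets fewer libraries decide, and the mutant-only count was 8 without control 1 and 10 without mutant 1, against 4 without control 2 and 5 without mutant 2. Of the 42 regions, 32 and 36 had a peak in the mutants against 29 and 23 in the controls. In all assigned regions the corresponding shares were 74.1% and 80.3% against 77.4% and 59.9%, so the order of the libraries at these genes was that of the whole lists except that control 1 was below mutant 1. Single-library calls numbered 9, of which 6 were in mutant 2, the longest list.

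A missing call was not shown to be a missing peak. Peaks carry numbers in the deposited lists, and some numbers are missing from each list, for a reason not given in the sources used here. For every 1 of the 48 absences at these genes at least 1 numbered peak was missing between the flanking listed peaks, with a median of 6 and a range of 1 to 31. With most numbers missing throughout the lists, this would be likely for any long gap and does not set these regions apart.

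Rank was then compared in the 20 regions called in every library. Their median percentiles were 57.0 and 63.7 in the mutants and 60.6 and 47.8 in the controls. Over all such assigned regions the medians were higher in each library, at 69.0 and 71.6 in the mutants and 70.2 and 60.9 in the controls. By percentile of the full list, both mutants were above both controls in 4 regions, at Has2, Postn, Lum and Lox, or 20.0% against 28.4% of all such assigned regions. Both controls were above both mutants in 0, against 5.75%. The median mutant minus control difference was 6.79 points, against 3.04 points over all such regions. Control 2 was the lowest library in 13 of the 20 and in 11300 of the 17529. Without control 2 the median difference was −1.76 points, with both mutants above control 1 in 5 of 24 regions and below it in 7. Without control 1 it was 12.0, with both mutants above control 2 in 15 of 20 and below it in 1. Without mutant 1 it was 6.62, with mutant 2 above both controls in 7 of 20 and below both in 2, and without mutant 2 it was 3.77, with mutant 1 above both in 10 of 21 and below both in 3.

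Among regions called in all 4 libraries these numbers were different. Both mutants were above both controls in 1 region, at Lox, or 5.0% against 17.0% of all such regions. Both controls were above both mutants in 3, at Tnc (29.1 kb), Postn (41.1 kb) and Eln (13.9 kb), or 15.0% against 18.4%. The median difference was 0.0126 points, against −0.102 over all such regions, with 10 regions above 0 and 10 below. With equal peak numbers 18 regions were called in all 4 libraries, and the Lox region was not among them. Of the 18, 0 had both mutants higher (16.7% of all) and the same 3 had both controls higher (18.4% of all). With 2 libraries per genotype a two-sided exact permutation test over libraries cannot give a p under 0.33, the value of the regions whose genotypes do not overlap, so no region could pass the usual threshold. The share of regions separated by genotype was not above the background by either ranking, and libraries of 1 genotype differed by a median of 7.80 points between the mutants and 13.8 between the controls.

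**Figure D3:**
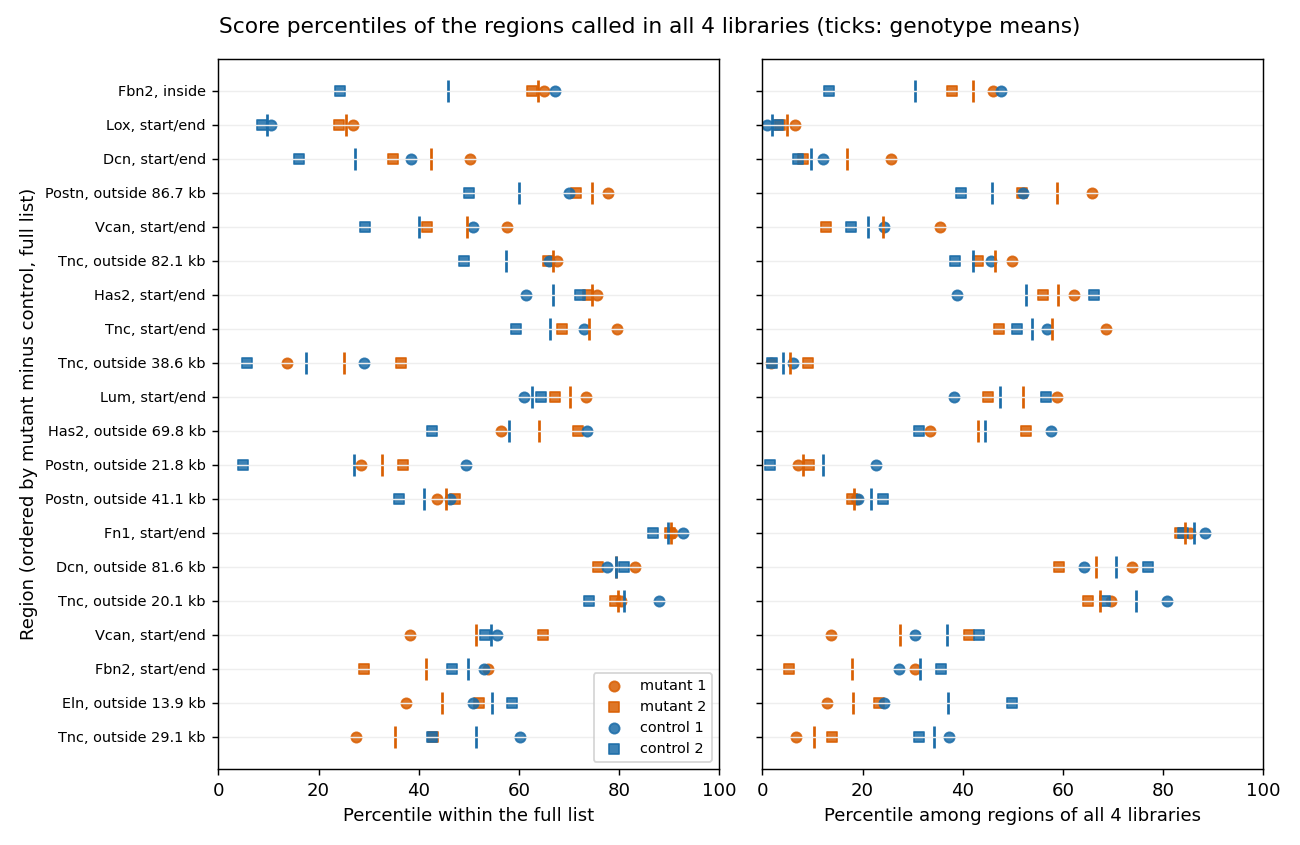
Percentiles of the 20 regions called in all 4 libraries (rows, ordered by mutant minus control in the full list), within each full list (left) and among regions called in all 4 libraries (right). Orange symbols are mutants, blue symbols controls and ticks genotype means; on the left 4 regions have both mutants above both controls, and on the right 1 does while 3 have both controls higher.

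Other matrix genes were counted in 9 lists of related function, which hold 118 genes in all and 108 without the 10. These 108 genes had 325 regions, of which 141 (43.4%) were called in every library, 18 were mutant-only (5.54%) and 5 control-only (1.54%), against 4.02% and 1.07% of all assigned regions. In the 141, both mutants were above both controls in 44 by percentile of the full list (31.2%, against 28.4% of all such assigned regions) and both controls above both mutants in 3 (2.13%, against 5.75%). Among regions called in all 4 libraries those numbers were 30 (21.3%, against 17.0%) and 17 (12.1%, against 18.4%). The median difference was 5.13 points in the full list, against 3.04 over all such regions, and 0.583 points among regions called in all 4 libraries, against −0.102.

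The matricellular list, with Fn1, Tnc and Postn among its 27 genes, held 12 mutant-only and 0 control-only regions of 109, or 11.0% against 4.02% of all assigned regions. Tnn, another tenascin, had 2 mutant-only regions as its only regions. One lay within 1 kb of an end (chromosome 1, 160153369 to 160153991), at 37.6 in mutant 1 and 35.4 in mutant 2, and the other 3.84 kb from an end (160148955 to 160149734), at 38.5 and 33.0. Thbs4, a thrombospondin, and Smoc2, a calcium-binding matrix protein, had 2 each. Tnr, Egflam, Npnt and Ccn4 had 1 each, and Tnr had the most regions of the list, 15. With control 2 the shortest list, the part of list length in these counts was not tested.

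In all assigned regions 4.02% were mutant-only and 1.07% control-only, and the counts of the other lists were small. Elastic fibre genes, with Eln and Fbn2 among 18, had 2 mutant-only regions (Fbn2 and Efemp1) and 2 control-only regions (Fbn1 and Ltbp1) of 58, or 3.45% each. The Fbn1 region, inside the gene for the related fibrillin (chromosome 2, 125428758 to 125429469), was called at 38.9 in control 1 and 12.0 in control 2. Lysyl oxidases had 1 mutant-only region of 6 (16.7%), at Loxl1. The small leucine-rich proteoglycans had 1 of 14 (7.14%), that of Dcn. Hyaluronan genes had 0 mutant-only and 1 control-only of 27 (3.70%), inside Cemip2, which encodes a hyaluronan-degrading enzyme, and versican with its relatives and link proteins had 0 of either among 11.

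Basement membrane genes had 2 mutant-only regions (Nid1 and Lama2) of 59 (3.39%, against the 4.02% of all assigned regions). They also had 1 control-only region (1.69%, against 1.07%), and the most regions, 12, were at Lama2. Integrins and syndecans, the receptors of these proteins, had 3 mutant-only (2 at Itgb5 and 1 at Itgb1) and 1 control-only (Itga4) of 53, or 5.66% and 1.89%. The ADAMTS enzymes that cut versican and related proteoglycans had 1 mutant-only region, at Adamts20, of 30 (3.33%). Most regions were at Cemip2 (7) in the hyaluronan list, Vcan (4) among its relatives, Dcn (4) among the small proteoglycans, Ltbp1 (9) among elastic fibre genes and Loxl1 (3) among lysyl oxidases. Itga9 (8) led the receptors, and Adamts9 and Adamts20 (6 each) the enzymes.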

How the data were processed

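Each library's peak list, as the authors deposited it, has 10 columns and no header. The submitters' processing notes name mm10 as the build; aligner, peak caller and filters: not given in the sources used here. Per the values of the deposited files, the score is the whole part of 10 times the −log10 p in all but 5 rows. The authors' enrichment values were taken to be a fold over background, and what that background is was not given. The deposited −log10 p-values and −log10 q-values belong to single peaks, and only the score and the enrichment were used. Samples were grouped by title and genotype. The replicate numbers in the titles were not taken to pair libraries: the correlation of the deviations of same-numbered libraries was −0.0266.

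Autosomal and X-linked peaks were merged at 1 shared bp, leaving out 40 peaks on chromosome Y. Peaks were ranked by score with ties averaged. Where a region spans several genes, the gene nearest its midpoint and then the one with the nearer end was taken, from 21631 protein-coding genes of RefSeq GRCm38.p6. That table gives no exons, introns or strand, and starts with strand came from a promoter table that held 3 of the 10 genes. The plan's exact permutation test over libraries cannot give a p under 0.33, so values are described. Merging, classes and assignment were tested on simulated data. Members and lists were chosen with earlier results of these data known. Named are all 10 genes, list genes with a genotype-specific region and the gene of each list with the most regions; 1 such gene is not reported here. Python 3.11.15, pandas 2.3.3 and numpy 2.4.6 were used. With depth unknown, values carry no counting error.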

Additional observations from a re-analysis of the deposited data

How the results depend on the processing

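Read depth, unknown here, limits every call. The count of 11 regions near a start or end ran from 8 to 11 under all settings. Merging at 100 bp moved no value. Averaging several peaks could not move any, because no region of these genes held more than 1 peak of a library. The upper 50% of each list gave 18 regions, 7 called in all libraries and 0 mutant-only, with a median difference of 15.3 points. Within 50 kb, 2 regions were mutant-only. At equal peak numbers 1 region was mutant-only. Of 18 regions called in all libraries there, 0 had both mutants higher and 3 both controls higher. The median difference was −1.35, against −0.132 over all regions. Ranked by enrichment, 3 regions had both mutants higher and 1 had both controls higher, with a median difference of 3.99 points. Re-ranking among regions called in all libraries was chosen after seeing the data, and gave 1 region with both mutants and 3 with both controls higher. With the replicate number as a block, 8 regions had the mutant above the control in both numbered pairs and 1 the reverse. The block cannot change the median of 6.79, because the mean of the paired differences is the difference of the means. Leaving out each library in turn gave 36 to 41 regions, 20 to 24 called in all remaining libraries, 4 to 10 mutant-only, 0 to 1 control-only, 5 to 15 with mutants higher and 1 to 7 with controls higher. The median difference then ran from −1.76 (without control 2) to 12.0 (without control 1). Fewer libraries have to agree then, and the cause of other moves was not tested. Of 240 values of single regions under the alternatives, 226 moved by less than the SD within genotypes, and the sign differed in 26. Leaving out 1 library or blocking by replicate number cannot move a value beyond that SD, so those settings could not show such a move. Nor could assigning within 50 kb, assigning by midpoint to the gene start or averaging several peaks, since none of these can change a percentile here. The 226 therefore include many values that were bound to stay. Moves of at least the SD came in 4 of 18 values at equal peak numbers and 3 of 20 ranked by enrichment. They also came in 4 of 20 values re-ranked among regions called in all libraries and 3 of 7 in the upper 50%.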
